A study of Caenorhabditis elegans with 10 samples.

Results

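The loci described here are 3 regions of the *C. elegans* genome named for the genes hlh-11, tcc-1 and dcs-1, together with every accessible peak within 25 kb of them. The regions were taken by name and position from the study's list of putative enhancers for reporter assays. The study had selected its candidates for the largest differences in accessibility between stages in these same samples. From that list, the regions here were chosen by the high ranks of their peaks by fold enrichment in L3 larvae or young adults. They lie at chrIII:9618858-9619810 (hlh-11), chrV:17857816-17858370 (tcc-1) and chrV:20088321-20088925 (dcs-1) in the ce10 build. The windows held 58 of the 55893 peaks in the series, of which 31 belonged to the 27694 peaks of early embryos, 10 to the 13040 of L3 and 17 to the 15159 of young adults. Of these 58 peaks, 10 overlapped the regions themselves. Since stage differences and then ranks chose the regions, contrasts between stages at these 10 peaks were set by the choice. Their ranks and stage membership are a description and were not tested.

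The study asked where chromatin opens and closes as the worm develops, using ATAC-seq of whole worms of the wild-type strain N2 grown at 20°C. Each stage had 3 biological replicates, A, B and C. Early embryos were freed from adults by bleaching, larvae of the third stage (L3) were taken 36 h post egg lay, and young adults carrying almost no eggs 57 h post egg lay. A further library was made from purified genomic DNA of the same strain as an input control. The replicates of a stage were pooled into 1 peak list, so no value below has a spread between replicates. Whole worms were used, so fewer cells with an open site and a less open site in each cell cannot be told apart. By the study's read counts, the early embryo was sequenced most deeply and L3 least, so weak sites of L3 and young adults may have escaped detection.

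In ATAC-seq the transposase Tn5 cuts DNA that is not packed in nucleosomes and inserts sequencing adapters, so stretches of open chromatin, mostly promoters and enhancers, appear as peaks of insertions. Enhancers are bound by transcription factors and raise the activity of a promoter in particular tissues or at particular times, and many are open for part of development only. The gene hlh-11 encodes a basic helix-loop-helix transcription factor related to human TFAP4. The gene tcc-1 encodes a protein with transmembrane and coiled-coil domains. The gene dcs-1 encodes the scavenger decapping enzyme, which breaks down the cap left at the end of 3′ to 5′ mRNA decay. In gene order, hlh-11 lies between hcp-3, a centromeric histone H3 variant, and tbg-1, the gamma-tubulin. The gene tcc-1 lies between srh-286, a chemoreceptor-family gene, and csn-1, a subunit of the COP9 signalosome, and dcs-1 lies between fre-1 and sec-23, a subunit of the COPII vesicle coat. The name of a region does not show that the region acts on that gene.

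The cloned regions can be identified by the worm-specific ends of the primers that amplified them, which are shown because they bound what was cloned into the reporter. By the study's methods the clones reached beyond the regions on either side, and where the primers lie in ce10 was not analysed here. Vector tails and restriction sites were removed. The forward primer of the control segment cloned from beside the dcs-1 region is shown too, because it meets the dcs-1 clone. Capitals mark the bases that are reverse complements of each other in the dcs-1 reverse primer and this control primer, and all 22 bases of both are in capitals. The control segment therefore began with the sequence at which the dcs-1 clone ended, and the clones shared those 22 bases. The hlh-11 primers lie on chromosome III and the others on V.
hlh-11 forward: tcaagcacaccaggcaatta
hlh-11 reverse: tctactcccgcaatttttgg
tcc-1 forward: agagaaacctggcccaaaac
tcc-1 reverse: cacatttttccggggattt
dcs-1 forward: tttttaagggaatttggctttt
dcs-1 reverse: CAAGTTTCGCACAATAGTACCG
dcs-1 control forward: CGGTACTATTGTGCGAAACTTG

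A pair of peaks from different stages were taken as counterparts where they shared at least 0.5 of the length of either. The 3 regions differed in membership. The hlh-11 region held 2 peaks in each list, and the tcc-1 region held 1 peak in each list. All 9 of these peaks had counterparts in both other stages, so the name post-embryonic described their ranks and not their membership in the full lists. With the lists cut to equal numbers of their strongest peaks, the second early embryo peak at hlh-11 was no longer listed, and 3 of the hlh-11 peaks instead of 6 had counterparts in both other stages. Over the whole lists, 29.2% of early embryo peaks, 60% of L3 peaks and 50.9% of young adult peaks had counterparts in both other lists. The dcs-1 region held 1 peak, in the young adult list, with no counterpart at either other stage. Of all young adult peaks, 17.3% had a counterpart at neither other stage and 38.1% had none in L3.

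**Figure D1:**
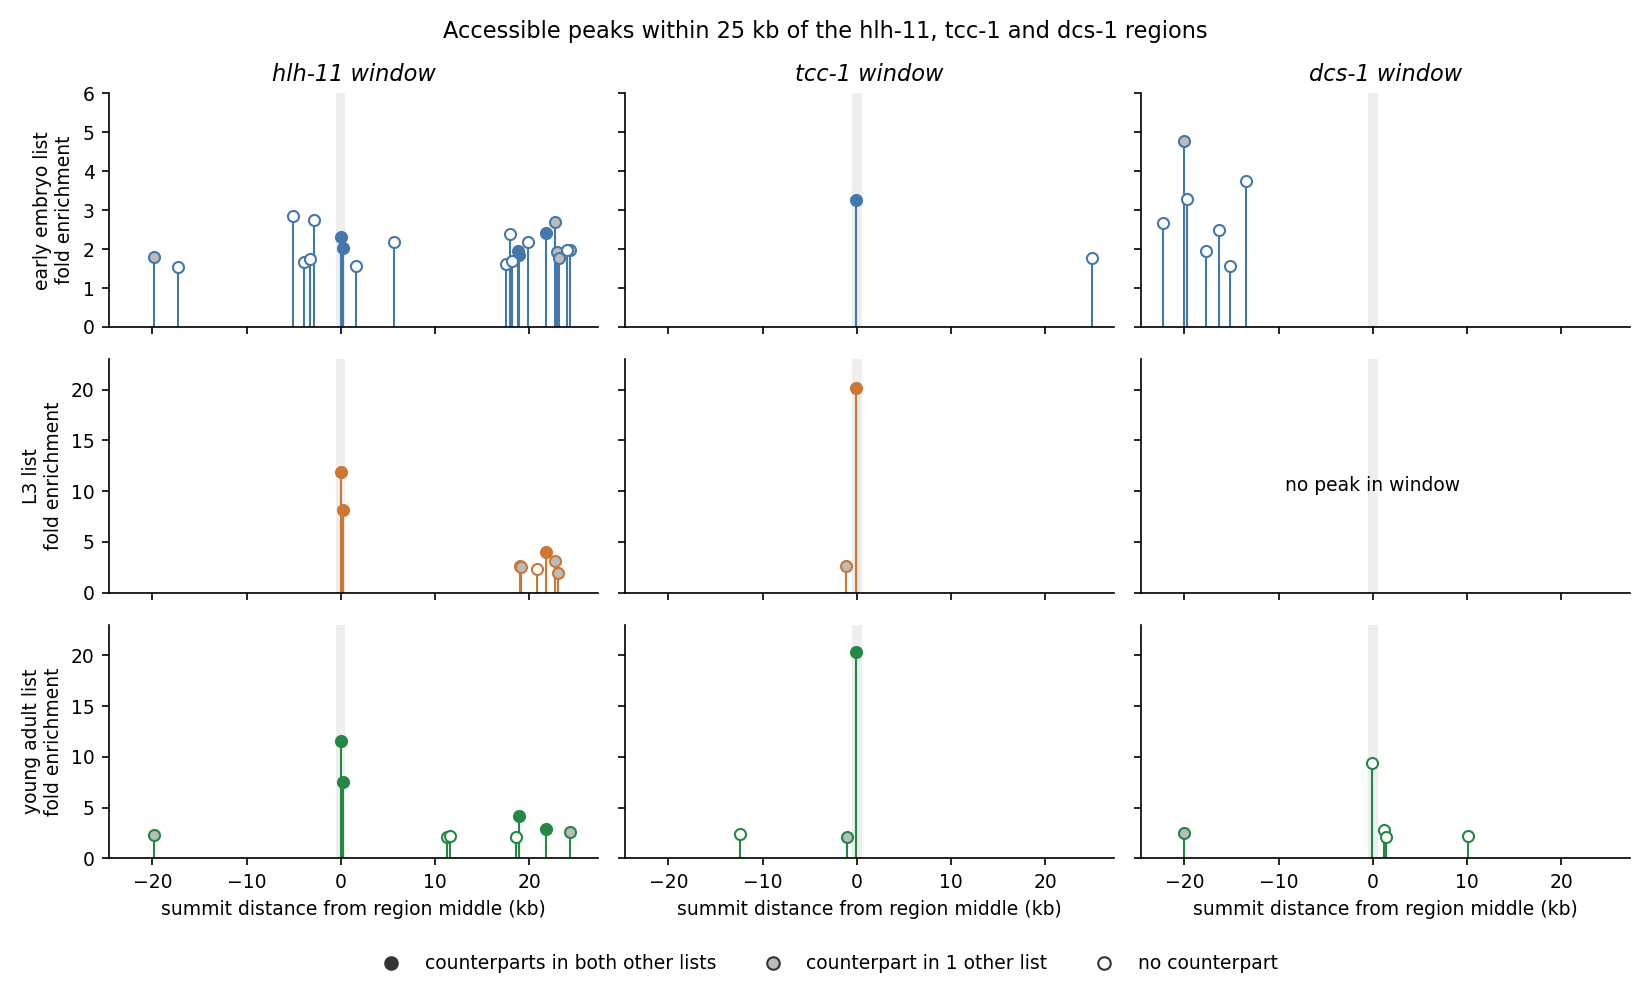
Fold enrichment (vertical axis) of every peak within 25 kb of the 3 regions against the distance of its summit from the middle of the region in kb (horizontal axis), with a row for each stage list, a column for each locus and the region in grey. The fill of a point shows in how many other lists the peak had a counterpart, and the vertical scale of the early embryo row is its own. The tallest points of the L3 and young adult rows stand at the tcc-1 region, at 20.2 and 20.3 times the local background, and the L3 panel of dcs-1 is empty.

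Fold enrichment is the peak caller's ratio of insertions at the summit to the background expected around it in the pooled reads of that stage. The lists differ in their range of folds, with a median of 2.09 in early embryos, 3.08 in L3 and 2.77 in young adults, so a peak was ranked by fold within its own list, with rank 1 the highest. The early embryo peak at tcc-1 had a fold of 3.26 and rank 3864 of 27694. The L3 peak had a fold of 20.2 and rank 5 of 13040, and the young adult peak had a fold of 20.3 and rank 3 of 15159. The tcc-1 site was thus among the 5 strongest peaks of the L3 and young adult lists but only within the first 14.0% of the early embryo list.

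The first hlh-11 peak, on the side of lower coordinates, had a fold of 2.30 and rank 10389 in early embryos. It had a fold of 11.9 and rank 154 in L3, and a fold of 11.6 and rank 180 in young adults. The second hlh-11 peak was lower in each list. It had a fold of 2.04 and rank 14920 in early embryos, a fold of 8.18 and rank 829 in L3, and a fold of 7.49 and rank 883 in young adults. In early embryos the first peak stood in the upper 37.5% of its list and the second at 53.9%, so the second was weaker than the middle of that list. In the later stages the first peak was within the first 1.18% (L3) and 1.19% (young adult).

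The dcs-1 peak had a fold of 9.42 and rank 427 in young adults, within the first 2.82% of the list. It was lower in fold than the first hlh-11 peak and the tcc-1 peak of the same list and higher than the second hlh-11 peak. Neither the early embryo nor the L3 list gave any value at this region.

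Other strong peaks give these ranks a scale. All 154 L3 peaks ranked at or above the first hlh-11 peak had an early embryo counterpart, whose best rank had a median of 208.5 and quartiles of 69.5 and 634. Only 4 of the 154 had a counterpart ranked further down than the 10389 of hlh-11, and 10 had one further down than the 3864 of tcc-1. The 4 L3 peaks ranked above tcc-1 had early embryo counterparts at ranks 7, 9, 6 and 39. In young adults, the peaks ranked 1, 2, 4 and 5 had early embryo counterparts at ranks 129, 7, 6 and 181. The tcc-1 site was the only 1 of the first 5 peaks, in L3 and in young adults alike, whose early embryo counterpart ranked behind 181.

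Of the 427 young adult peaks ranked at or above the dcs-1 peak, 425 had an L3 counterpart and 423 had an early embryo counterpart. The dcs-1 peak was the only 1 of them with neither, or 0.234%. It was also the only 1 with neither among the first 757 peaks, the upper 5% of the list. No L3 peak among the first 652, the upper 5% of that list, lacked a counterpart at both other stages. These counts, and those above for hlh-11 and tcc-1, use the ranks and stage differences that chose the regions and were not tested.

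The order of the loci depended on the measure. The −log10 of q, the significance that the peak caller gave a peak against its local background, also rises with the number of reads. By −log10 q the first hlh-11 peak ranked 16 in L3 and 24 in young adults, ahead of tcc-1 at 46 in L3 and 25 in young adults. By fold, tcc-1 was ahead in both lists. The values behind this were a −log10 q of 1556 for the first hlh-11 peak and 1196 for tcc-1 in L3, and of 1851 and 1838 in young adults. In early embryos tcc-1 was ahead by either measure, with a −log10 q of 120 against 54.0 for the first hlh-11 peak. The dcs-1 peak, with a −log10 q of 488, ranked 573 by this measure, close to its rank by fold.

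The peaks at the regions were wider than the median peak of their lists. In the early embryo list the widths were 368 and 319 bp at hlh-11 and 367 bp at tcc-1. In the L3 list they were 569 and 384 bp at hlh-11 and 546 bp at tcc-1. In the young adult list they were 554 and 377 bp at hlh-11, 547 bp at tcc-1 and 605 bp at dcs-1. The median peak was 240 bp in early embryos and 286 bp in both later lists. The dcs-1 peak was the widest of the 10 as listed, and 97.5% of young adult peaks were narrower. With adjoining peaks joined the hlh-11 peak was wider, at 953 bp in L3 and 931 bp in young adults.

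Strong peaks were wide in general, and against those the widths stood out less. Among the upper 5% by fold, the median width was 398 bp in early embryos, 456.5 bp in L3 and 475 bp in young adults. Of the young adult peaks in the upper 5%, 78.1% were narrower than the dcs-1 peak, 67.9% narrower than the first hlh-11 peak and 66.2% narrower than the tcc-1 peak. In L3, 75.8% of them were narrower than the first hlh-11 peak and 70.2% narrower than the tcc-1 peak. The second hlh-11 peak was narrower than most strong peaks, with 28.5% of the upper 5% narrower in L3 and 25.5% in young adults. So were the early embryo peaks, with 40.5% and 23.5% of the upper 5% narrower at hlh-11 and 40.1% at tcc-1. At every region with peaks in all lists, the early embryo peak was narrower than its L3 and young adult counterparts.

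**Figure D2:**
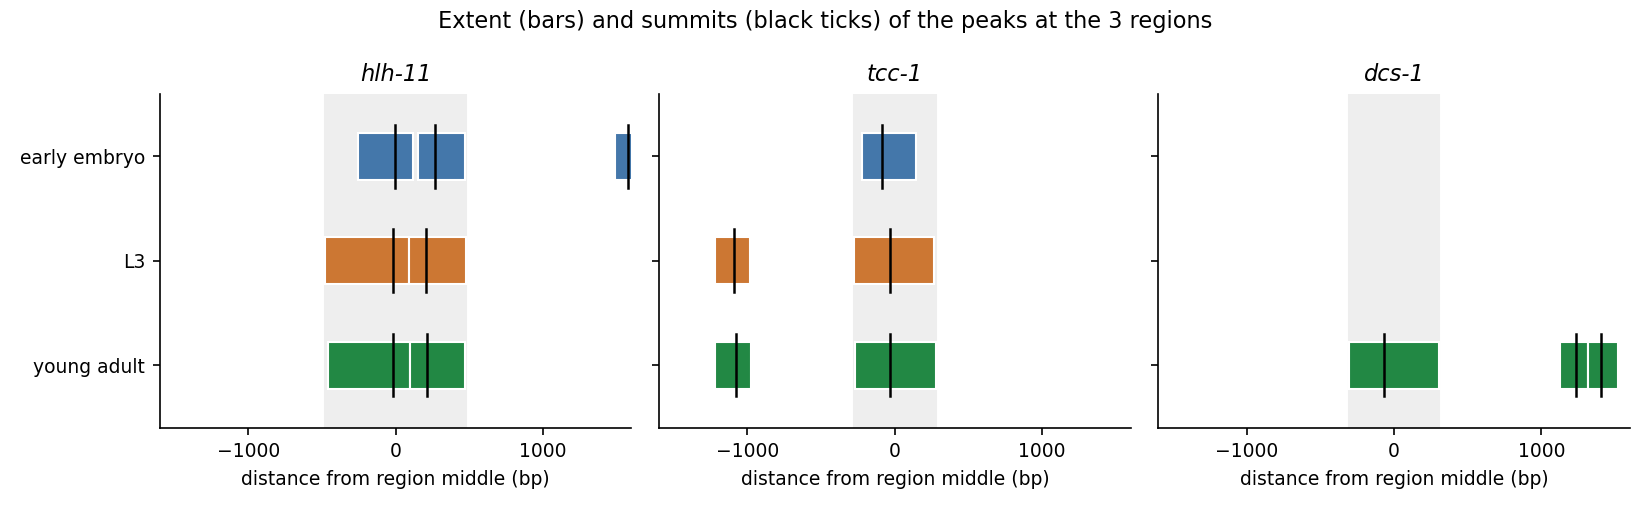
Extent of each peak (bars) and its summit (black ticks) in the early embryo, L3 and young adult lists, as distance in bp from the middle of each region (grey). The L3 and young adult bars cover nearly the same bases at hlh-11 and tcc-1, the early embryo bars are shorter, and dcs-1 has a bar at its region in young adults only.

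At hlh-11 the L3 and young adult peaks were parts of 1 called interval that the authors had split between summits. The first peak ended at 9619426 in L3 and at 9619428 in young adults, and the second began at the next base. The summits of the parts were 224 bp apart in L3 and 227 bp apart in young adults, and the interval was 953 bp long in L3 and 931 bp in young adults. In early embryos the peaks had been called separately, with 37 bases between them, and their summits were 276 bp apart over a span of 724 bp. The upper edge was at 9619810 in L3 and at 9619805 in both other lists, whereas the lower edge lay at 9619082 in early embryos, 9618858 in L3 and 9618875 in young adults. The additional length of the L3 and young adult peaks thus lay almost wholly on the side of lower coordinates.

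The summits of the L3 and young adult peaks nearly coincided. For the first hlh-11 peak the summit was at 9619316 in young adults and 9619315 in L3, 1 bp apart. Of all 9732 pairs of counterparts of these lists, strong and weak, 9.53% were as close. A peak that shared enough length with several peaks of the other list made a pair with each. A separate comparison with pairs of strong peaks was not made. The second hlh-11 summits were 4 bp apart, and so were those of tcc-1, at 17858061 in young adults and 17858057 in L3. Of all such pairs, 71.2% were farther apart, and the median was 9 bp. Overlap was as close, with 99.6% of the young adult peak and 97.0% of the L3 peak shared at the first hlh-11 peak. At tcc-1, 98.4% of the young adult peak and 98.5% of the L3 peak were shared.

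The early embryo summits were displaced at some peaks and not at others. The first hlh-11 summit of early embryos lay 10 bp from that of young adults and 11 bp from that of L3, close to the median of 13 bp over all pairs with either list. The second hlh-11 summit was 59 bp from that of young adults and 63 bp from that of L3. The tcc-1 summit, at 17858003, was 58 bp from that of young adults and 54 bp from that of L3. Distances this large or larger were in the outer part of the distribution, with 13.5% of young adult pairs and 12.6% of L3 pairs farther apart than the second hlh-11 pair. At tcc-1, 13.7% of young adult pairs and 14.4% of L3 pairs were farther apart. The pairs over whole lists include those of a peak with several parts of a split interval. Each peak at the hlh-11 and tcc-1 regions had a single counterpart in each other list. The early embryo summit was shifted to higher coordinates at the second hlh-11 peak and to lower coordinates at tcc-1.

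**Figure D3:**
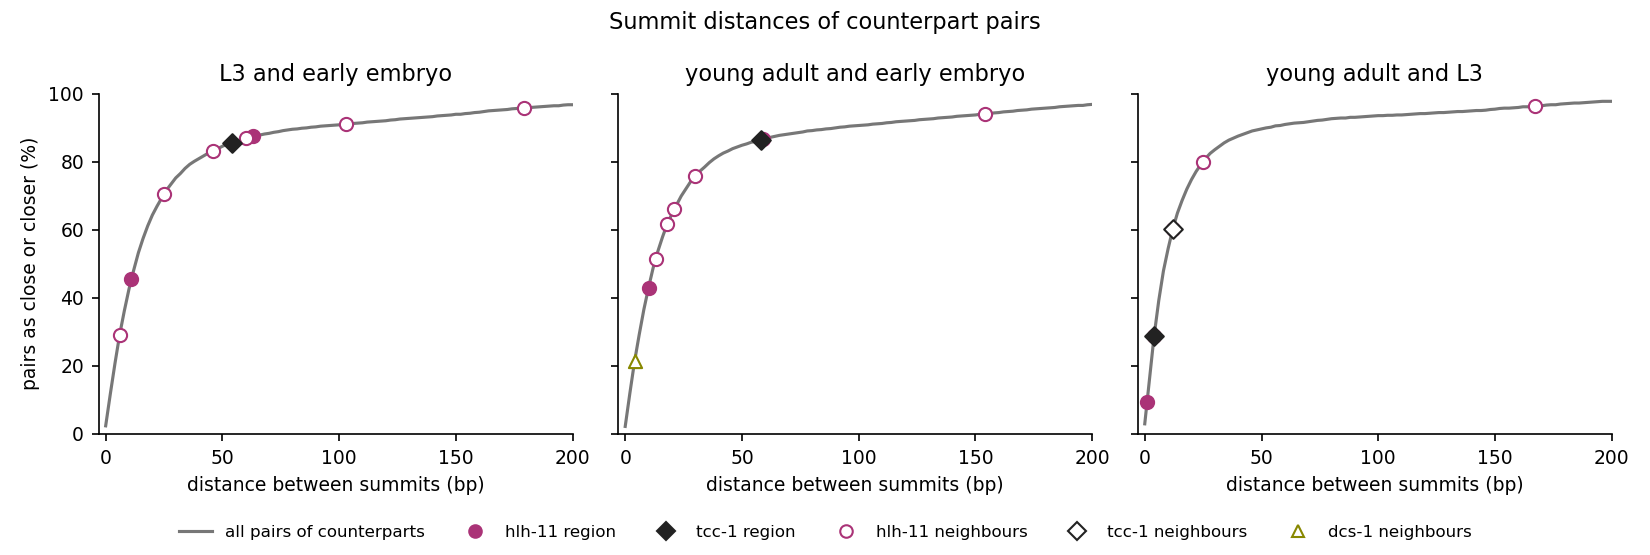
Percent of all counterpart pairs whose summits were as close or closer (vertical axis) against the distance between summits in bp (horizontal axis), for L3 with early embryo, young adult with early embryo and young adult with L3. Filled points are pairs at the regions and open points are pairs elsewhere in the windows, and the second hlh-11 pair of the right panel lies under the tcc-1 point at 4 bp. The filled points of the right panel lie at 1 and 4 bp, whereas those of the other panels reach 63 bp.

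The surroundings of the loci differed as well. Windows were compared with consecutive 50 kb blocks of the same chromosome, 275 on III and 418 on V, which are slightly shorter than the windows. The hlh-11 window held 22 early embryo, 8 L3 and 9 young adult peaks, against block medians of 15, 7 and 8 on chromosome III. The tcc-1 window held 2 early embryo, 2 L3 and 3 young adult peaks, against block medians of 11, 5 and 6 on V. The dcs-1 window held 7 early embryo, 0 L3 and 5 young adult peaks on the same chromosome. On V, 91.9% of blocks held more early embryo peaks than the tcc-1 window, and 9.09% of blocks held no L3 peak, like the dcs-1 window.

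The hlh-11 window was rich in weak early embryo peaks. Its 20 neighbouring early embryo peaks had folds of 1.54 to 2.84, with a median of 1.93 under the list median of 2.09, and 7 of them exceeded that median. Of these 20, 12 had no counterpart at a later stage, 5 had a counterpart at 1 later stage and 3 at both. Over the whole early embryo list, 50.9% of peaks had no counterpart. The strongest neighbour, which was also the strongest without a counterpart, lay at chrIII:9614207-9614401, with a fold of 2.84 and rank 5656, above both early embryo peaks at the region itself. The nearest neighbours were at chrIII:9616443-9616630 (fold 2.75, rank 6170) and chrIII:9620822-9621025 (fold 1.56, rank 26120), and neither had a counterpart.

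The 6 neighbouring L3 peaks of hlh-11 all lay 19.0 to 23.1 kb away on the side of higher coordinates. They ranked from 4127 to 12254, and 1 of them had no counterpart, against 10.9% of the whole L3 list. The strongest, at chrIII:9640956-9641259 (fold 4.01, rank 4127), had counterparts at both other stages. The nearest, at chrIII:9638084-9638413, had a fold of 2.64 and rank 8328, and the peak without a counterpart, at chrIII:9639896-9640293, had a fold of 2.30 and rank 10370. On the other side the next L3 peak lay 26.5 kb away, outside the window.

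Of the 7 neighbouring young adult peaks of hlh-11, 3 had no counterpart, against 17.3% of the whole young adult list. With adjoining peaks joined, 1 of 5 had none. The strongest lay at chrIII:9638114-9638668 with a fold of 4.17 and rank 3365, overlapping a pair of L3 peaks and a pair of early embryo peaks. The strongest without a counterpart lay at chrIII:9630766-9631055 (fold 2.20, rank 11557), and its other part, at chrIII:9630472-9630765 (fold 2.1, rank 12414), was the nearest peak on that side. The nearest on the other side, at chrIII:9599383-9599811 (fold 2.34, rank 10374), had an early embryo counterpart only. No neighbour in the hlh-11 window reached the upper 5% of its list, and in L3 and young adults both peaks at the region had a higher fold than every neighbour.

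The tcc-1 region was nearly alone in its window. A small peak 0.706 kb away in young adults (chrV:17856876-17857117, fold 2.09, rank 12588) and 0.705 kb away in L3 (chrV:17856874-17857110, fold 2.6, rank 8516) were counterparts of each other, with summits 12 bp apart, and had none in early embryos. Young adults had a further peak of 172 bp at chrV:17845596-17845767 (fold 2.41, rank 9853), without a counterpart. The only neighbour in early embryos lay near the edge of the window at chrV:17882809-17883119 (fold 1.76, rank 22113), also without a counterpart. On the side of higher coordinates the next peak was 24.6 kb away in early embryos and 26.1 kb away in L3 and in young adults. In early embryos the gap on the other side was 29.0 kb, and 1.01% of the gaps in that list were longer. Gaps were counted between all consecutive listed peaks, so the empty junctions between adjoining parts of split intervals are included.

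At dcs-1 the neighbours of early embryos and of young adults lay mostly on opposite sides. All 7 early embryo peaks were 13.5 to 22.2 kb away on the side of lower coordinates, and 6 of them had no counterpart, against 50.9% of the whole early embryo list. With adjoining peaks joined, 5 of 6 had none. None of the 7 could have a counterpart in L3, since the window held no L3 peak, whereas the share of the whole list allows a counterpart at either later stage. The strongest, at chrV:20068444-20068699, had a fold of 4.77 and rank 1281, and was the only neighbour in the 3 windows within the upper 5% of its list. It was also the only 1 of the 7 with a counterpart, a young adult peak at chrV:20068451-20068659 whose summit was 4 bp away and which had a fold of 2.46 and rank 9459. The nearest, and the strongest without a counterpart, lay at chrV:20074973-20075247 (fold 3.75, rank 2615).

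The 3 other young adult neighbours of dcs-1 lay on the side of higher coordinates and had no counterpart. A split pair at chrV:20089753-20089942 (fold 2.79, rank 7462) and chrV:20089943-20090143 (fold 2.09, rank 12577) began 827 bp beyond the dcs-1 peak. Together they made up a separate region on the same list of the study, spelled DCS-1 there. It carries no enhancer number, and whether it was cloned was not established here. The last lay at chrV:20098632-20098926 with a fold of 2.17 and rank 11780. Of the 4 young adult neighbours of dcs-1, 3 had no counterpart, against 17.3% of the whole young adult list. With adjoining peaks joined, 2 of 3 had none. The split pair was on the study's list, selected for stage differences in these same samples. Its stage membership was therefore not independent of that choice, and the count was not tested. None of the 4 could have a counterpart in L3, since the window held no L3 peak. Of the whole young adult list, 38.1% had none in L3.

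No L3 peak was listed for 104 kb around dcs-1. The flanking L3 peaks were at chrV:20021333-20021583, 66.7 kb below the region (fold 4.16, rank 3835), and at chrV:20125796-20126052, 36.9 kb above it (fold 2.88, rank 7219). Of the 13033 gaps in the L3 list, 26 were longer. That total, like the early embryo total below, includes the empty junctions between adjoining peaks. The early embryo list had a gap of 49.7 kb across the region, and 59 of its 27687 gaps were longer.

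The lists keep the serial number that the peak caller gave each called interval, and these numbers rose along every chromosome. Of the numbers up to the highest in a list, 58.9% were present for early embryos, 42.5% for L3 and 41.0% for young adults, and why the others are missing was not tested. Across the dcs-1 gap, 3 numbers were missing in L3 and 1 in early embryos. The lists do not show what the missing numbers stood for, or whether any of them lay at the dcs-1 region. In young adults no number was missing between the dcs-1 peak and its neighbours on either side. At tcc-1, no number was missing below the region in L3 and young adults and 6 were missing in early embryos, while above it 0 were missing in early embryos, 1 in L3 and 2 in young adults. Beside hlh-11, 0 and 0 were missing in early embryos, 1 and 5 in L3 and 4 and 4 in young adults.

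The loci were also set beside the other 10 regions that the study had numbered for reporter tests and compared between stages. In young adults the best-ranked peaks of hlh-11, tcc-1 and dcs-1 ranked between 3 and 427, and of the other 10 regions 3 had a peak, ranking between 2484 and 6684. In L3 the ranks of hlh-11 and tcc-1 were 154 and 5, and of the other 10 regions 6 had a peak, ranking between 1708 and 9789. In early embryos the ranks of hlh-11 and tcc-1 were 10389 and 3864, within the range of 1078 to 24414 over the 9 other regions with a peak. The widths of these best-ranked peaks showed the same separation. They were 547 to 605 bp against 223 to 338 bp in young adults and 546 to 569 bp against 196 to 354 bp in L3. The second hlh-11 peak, not counted here, was 377 bp wide in young adults and 384 bp in L3. The widths overlapped in early embryos, at 367 to 368 bp against 166 to 400 bp. Since the 3 loci were picked for high ranks, the separation of the ranks was set by the choice, and width moves with rank.

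**Figure D4:**
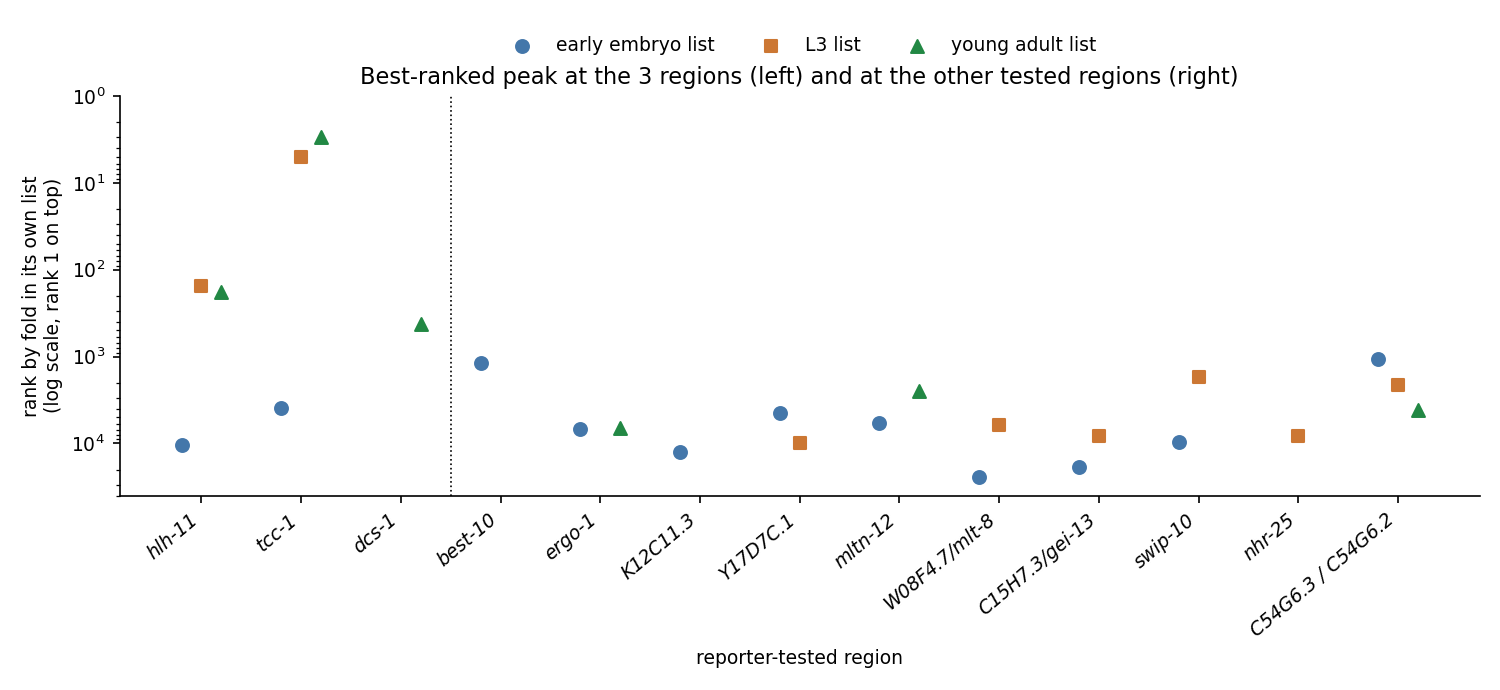
Rank by fold of the best-ranked peak (vertical axis, log scale, rank 1 on top) in the early embryo, L3 and young adult lists at hlh-11, tcc-1 and dcs-1 (left of the dotted line) and at the other 10 tested regions (right). A missing symbol means that the list held no peak there. The L3 and young adult symbols of the 3 loci lie at ranks 3 to 427, above every symbol on the right, whose best rank is 1078.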

How the data were processed

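ATAC-seq of early embryos, L3 larvae and young adults (3 replicates each) and of 1 genomic DNA input was processed by the authors. Per the labels and the study's methods, Bowtie2 2.1.0 aligned the reads to ce10, Picard took out duplicates, and the replicates of each stage were combined for MACS peak calling with q up to 0.05. Intervals with several summits were split, peaks seen across replicates were favoured, and peaks in blacklisted regions or with input signal were removed. Splitting raises the number of peaks and narrows them, and pooling leaves no spread between replicates, so no test was run.

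The deposited lists give fold enrichment, a ratio of signal at the summit to the background around it. The authors' −log10 q (used for an alternative ranking and filter) and −log10 p (not used) rise with depth. The deposited score repeats −log10 q and was not used. Depth in reads is not held in the lists. Fold and −log10 q were compared within a list only, and tied folds shared the lowest rank.

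Region positions and primers came from the study's supplementary tables, and primer tails shared by all primers of a kind were removed. Named neighbours were the nearest on each side, the highest by fold, those in the upper 5% and the highest without a counterpart, per window and list. The members and rules were chosen with earlier results of these data known. Overlap counts were checked against bedtools 2.31.1 and differed by 0 pairs. Genes matched in the RefSeq table of WBcel235 (3 of 3) gave names and gene order only, since its build differs from ce10. No ce10 genome was used, so peak sequences, distances to genes and primer positions were not analysed here. Scripts used Python 3.11.15, numpy 2.4.6, pandas 2.3.3 and matplotlib 3.10.9.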

Additional observations from a re-analysis of the deposited data

How the results depend on the processing

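The alternatives were any overlap (1 bp) or 0.5 of both peaks, a −log10 q of at least 2 or 5, lists cut to 13040 peaks by −log10 q or by fold, adjoining peaks joined, windows of 10 or 50 kb and ranks by −log10 q. The number of lists with a peak at each region, the single young adult peak at dcs-1 without a counterpart and the count for tcc-1 were the same under each overlap, threshold, list length and joining tried. Most of these settings could not have changed them. The nearest early embryo and L3 peaks lay 13.1 and 36.9 kb from the dcs-1 region. No peak at the regions had a −log10 q under 36.5. The best early embryo ranks at hlh-11 and tcc-1, 10389 and 3864, were inside the equal length of 13040. At hlh-11, 3 of the peaks instead of 6 had counterparts in both other lists under either equal list length, since the weaker early embryo peak fell out. With adjoining peaks joined, the hlh-11 peak was 953 bp wide in L3 and 931 bp in young adults, and young adult neighbours without a counterpart numbered 4 instead of 7. By −log10 q the best hlh-11 ranks were 16 in L3 and 24 in young adults, and those of tcc-1 46 and 25.

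Early embryo neighbours without a counterpart numbered 19 over the 3 windows, 8 at equal lengths by −log10 q, 9 by fold and 6 in 10 kb windows. L3 neighbours without a counterpart numbered 1, and 2 with overlap of both peaks or at either equal length, 0 in 10 kb windows and 5 in 50 kb windows. Young adult neighbours without a counterpart numbered 3 in 10 kb windows. Over whole lists, equal lengths gave 4848 (by −log10 q) or 4786 (by fold) early embryo peaks without a counterpart instead of 14098, and 2766 or 2803 L3 peaks instead of 1424. Of the counts for single windows, 34 of 162 moved by over 1.5 times, 13 of them higher and 21 lower. No paired analysis was possible because each list pools the replicates A, B and C, and for the same reason no replicate could be left out.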
